A study of Homo sapiens with 2 samples.

Results

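Host genes of small RNAs were compared between 2 RNA sequencing libraries of SUM-159, a mesenchymal human line from a triple-negative breast cancer. One library was made from cells labelled PD-L1L2-SE deficient, where PD-L1L2-SE is the super-enhancer named for PD-L1 and PD-L2, and the other from cells labelled sgVector, the control. Members were taken by name: rows whose current symbol is SNHG and a number, with GAS5, are called snoRNA hosts, and rows whose symbol starts with MIR and ends with HG are called microRNA hosts. The rule gave 111 of 60839 rows, 29 snoRNA hosts and 82 microRNA hosts. The sources used here do not say whether the deficient cells were 1 clone or a pool. There was 1 library per group, so no difference was checked against replicates and no test was made. A large change in some cells and a small change in all cells cannot be told apart.

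A host gene carries a small RNA inside its own transcript. Small nucleolar RNAs (snoRNAs) are trimmed out of introns after splicing and guide chemical marks on ribosomal RNA: the box C/D kind (SNORD genes) directs ribose methylation and the box H/ACA kind (SNORA genes) directs pseudouridylation, while SCARNA genes give related RNAs of the Cajal body. The spliced SNHG and GAS5 transcripts themselves mostly code for no protein, many begin with a pyrimidine tract as ribosomal protein messages do (5′-TOP genes), and several are known to be removed by nonsense-mediated decay during translation. MicroRNAs are cut from hairpins in the primary transcript by DROSHA and DGCR8, which destroys that copy of the transcript, and the mature microRNA then recognises messages mainly through its seed, bases 2 to 8.

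The mature microRNAs of the 4 microRNA hosts with the lowest ratios are shown first, because these hosts carry the results below. Sequences are from RefSeq (GRCh38.p14), 5′ to 3′, with the seed in capitals. MIR503HG carries miR-503 (minus strand, the 5p arm at chrX:134546371-134546393), MIR1915HG carries miR-1915 (minus strand, the 3p arm at chr10:21496576-21496595), MIRLET7BHG carries let-7a and let-7b (plus strand, chr22:46112752-46112773 and chr22:46113691-46113712), and MIR23AHG carries miR-23a, miR-27a and miR-24 (minus strand, chr19:13836595-13836615, chr19:13836447-13836467 and chr19:13836289-13836310).
hsa-miR-503-5p: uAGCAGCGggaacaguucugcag
hsa-miR-1915-3p: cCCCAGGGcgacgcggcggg
hsa-let-7a-5p: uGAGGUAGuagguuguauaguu
hsa-let-7b-5p: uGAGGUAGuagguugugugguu
hsa-miR-23a-3p: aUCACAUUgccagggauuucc
hsa-miR-27a-3p: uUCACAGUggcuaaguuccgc
hsa-miR-24-3p: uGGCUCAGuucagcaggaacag
Both let-7 RNAs of MIRLET7BHG have the seed GAGGUAG, and a further copy of let-7a with the same mature sequence lies in MIR100HG. RefSeq placed 23 microRNA genes inside 12 of the 15 microRNA hosts expressed at 1 RPKM or more, with 41 mature forms. The mature forms themselves were not measured: the libraries hold long RNA, and the 74 microRNA rows lying inside microRNA hosts had 17 reads in the deficient library against 16.

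The starts of 5 snoRNA hosts are shown because a pyrimidine tract at the start is what this gene family is known for. Each run covers the 20 bases before the RefSeq start and the 30 bases from it on (GRCh38.p14, transcribed strand), and capitals mark CTTT, the letters searched between 10 bases before and 20 bases after the start. The places are chr6:85678704-85678753 (minus) for SNHG5, chr17:76557744-76557793 (plus) for SNHG16, chr4:118278742-118278791 (plus) for SNHG8, chr1:28581844-28581893 (minus) for SNHG12 and chr1:28505923-28505972 (plus) for SNHG3, the last without the letters in its window.
SNHG5: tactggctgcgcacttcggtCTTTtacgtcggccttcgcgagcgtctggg
SNHG16: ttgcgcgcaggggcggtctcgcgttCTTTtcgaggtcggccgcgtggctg
SNHG8: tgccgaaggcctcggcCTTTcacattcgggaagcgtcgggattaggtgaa
SNHG12: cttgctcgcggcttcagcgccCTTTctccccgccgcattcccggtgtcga
SNHG3: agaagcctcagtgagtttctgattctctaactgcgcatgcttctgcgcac
CTTT stood in that window of 8 of 19 snoRNA hosts with a RefSeq start (42.1%), of 3 of 12 microRNA hosts (25.0%) and of 4133 of 27305 genes (15.1%). On the other strand the letters were found in 5.26% of the snoRNA hosts and 11.9% of all genes. GAS5 is counted among the hosts without the letters, although its RefSeq start may not be its main one. The 8 snoRNA hosts with CTTT had log2 ratios, as defined below, from -0.71 to 0.01 (median -0.19), and the 11 without it from -0.84 to 0.22 (median -0.37), so the ranges overlapped almost fully.

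The deposited values are RPKM, reads scaled by gene length and by the library's reads on genes, and the steps between them gave back whole reads, 16381546 from deficient cells and 16206675 from sgVector cells. The genes next to the element served as a check of the labels: CD274 (PD-L1) had 47 reads against 477 in the control, 10.3-fold lower (7.59 to 14.2), and PDCD1LG2 (PD-L2) had 46 and 204, 4.48-fold lower (3.24 to 6.32). Markers of the line (VIM, CD44, CAV1, AXL and SPARC) lay between 49.6 and 746 RPKM in both libraries. PGR and CD3E had no read in either library, which allows up to 3 reads each, PTPRC had 0 and 4, and ESR1 had 6 and 2. Other luminal markers were expressed: KRT18 stood at 21.1 against 28.9 RPKM (1112 and 1509 reads), FOXA1 had 71 and 86 reads and GATA3 48 and 77. The 5 luminal markers summed to 1237 and 1674 reads, and their part in the results below was not tested. VIM was 1.91-fold lower in the deficient library (390 against 746 RPKM). A ratio below is log2 of (RPKM + 0.1) in deficient over sgVector cells, given where the mean of both reached 1 RPKM. A fold is the ratio of read shares with its 95% Clopper-Pearson interval in brackets, which covers counting error only.

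Of the 29 snoRNA hosts, 23 passed 1 RPKM, and 19 of these 23 (82.6%) were lower in the deficient library, by small amounts. Their median log2 ratio was -0.21, from -0.84 for SNHG3 to 0.22 for SNHG21. The share of genes with a ratio below 0 was 55.5% of all 13552 genes and 66.6% of the 1110 long non-coding RNA genes. No snoRNA host passed 2-fold in either direction, beside 4.69% of all genes that were at least 2-fold lower and 3.03% that were higher. For long non-coding RNA genes these shares were 14.5% and 4.68%. The counting interval lay wholly below no change for 14 hosts and above it for 0, and it spanned no change for 9. Among all genes 32.6% were wholly below and 25.9% wholly above, and among long non-coding RNA genes 28.3% and 10.2%.

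**Figure D1:**
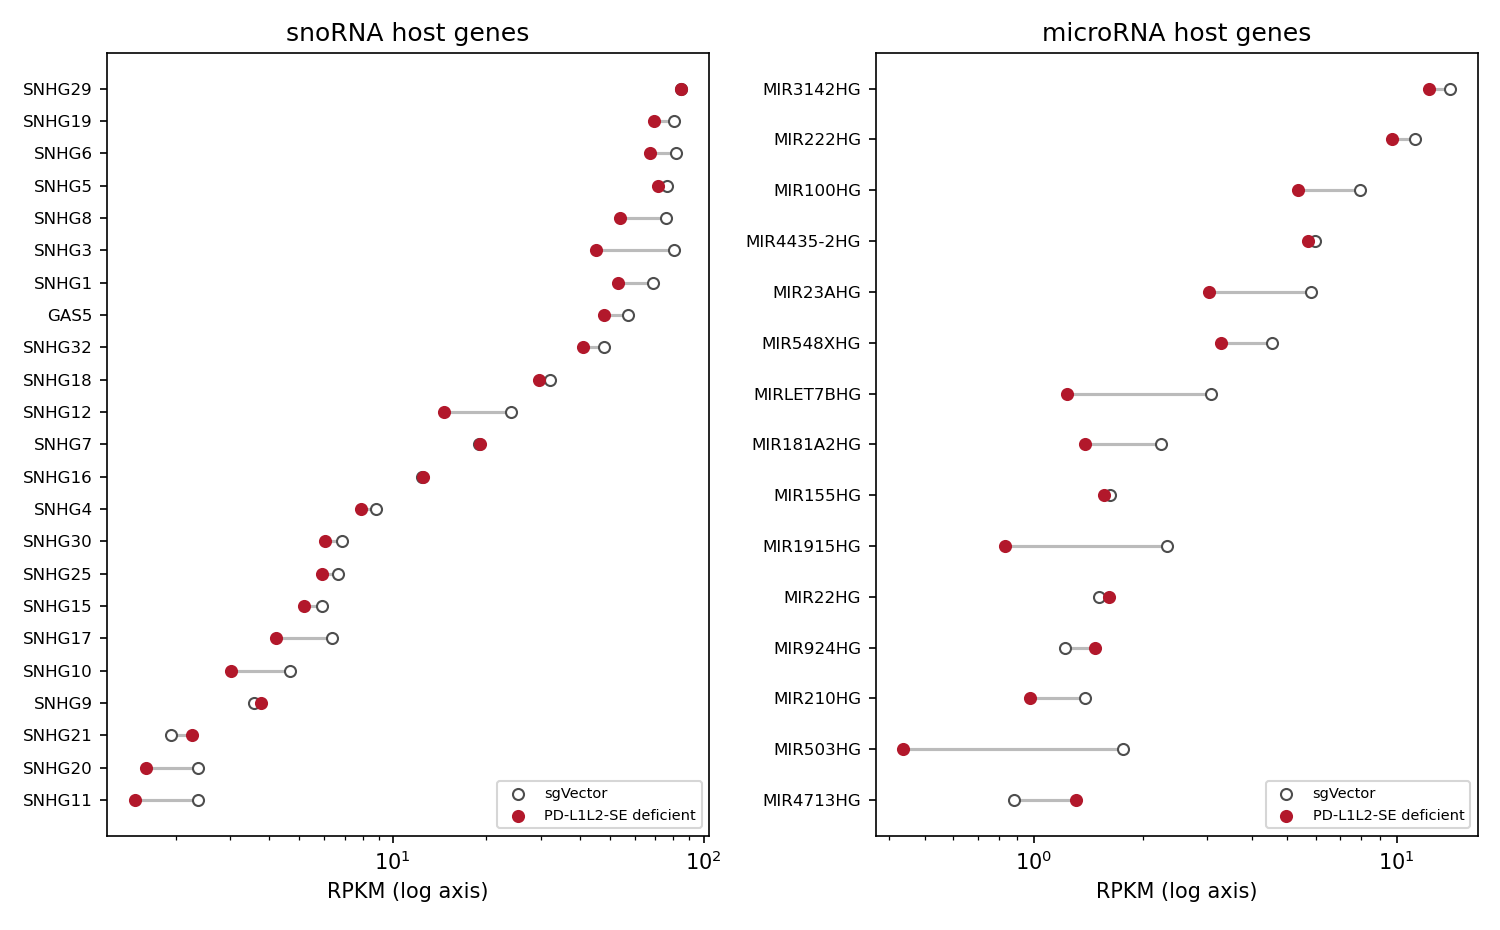
RPKM on log axes of the 23 snoRNA hosts and 15 microRNA hosts past 1 RPKM, ordered by mean; open circles are the sgVector library and filled circles the deficient library, 1 library each. SNHG3 and SNHG12 show the widest gaps among the snoRNA hosts above 10 RPKM, and MIR503HG, MIR1915HG and MIRLET7BHG the widest among the microRNA hosts.

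SNHG3 and SNHG12 differed most among the well expressed snoRNA hosts. SNHG3 (ENSG00000242125, hg19 chromosome 1, 28832492 to 28837404), which carries both copies of the U17 box H/ACA RNA, stood at 45.0 RPKM (3016 reads) in the deficient library against 80.4 RPKM (5328 reads) in the control. It was 1.79-fold lower (1.71 to 1.87), the nearest snoRNA host to 2-fold. SNHG12 (chromosome 1, 28905050 to 28909644) stood at 14.7 RPKM (1024 reads) and 24.1 RPKM (1664 reads), 1.64-fold lower (1.52 to 1.78). The hosts lie 67646 bases apart. The median of their neighbours did not share the difference: over the 20 nearest protein-coding genes it was -0.05 around SNHG3 and -0.06 around SNHG12. A median does not speak for each gene, as the value of TRNAU1AP below shows, and the neighbour sets may share genes. Exons of both overlap those of another gene, so reads may have been split: RCC1, on the strand of SNHG3, had 1278 and 1394 reads (ratio -0.14), and TRNAU1AP, opposite SNHG12, had 174 and 282 (ratio -0.69).

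A second close pair behaved alike. SNHG17 and SNHG11, 11225 bases apart on chromosome 20, both hold box H/ACA genes. SNHG17 stood at 4.22 RPKM against 6.35 RPKM (289 and 431 reads), 1.51-fold lower (1.30 to 1.76). SNHG11 stood at 1.48 RPKM against 2.37 RPKM (68 and 108 reads), 1.61-fold lower (1.17 to 2.21). The other close pairs did not match: SNHG16 had a ratio of 0.01 and SNHG20 one of -0.53 at 521368 bases, and SNHG9 one of 0.07 and SNHG19 one of -0.21 at 189288 bases.

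GAS5, whose transcript is known to build up in growth-arrested cells, and SNHG1 hold the most snoRNA genes, 11 and 8. GAS5 (chromosome 1, 173833038 to 173838020) stood at 47.8 RPKM (2846 reads) in the deficient library against 57.1 RPKM (3358 reads), 1.19-fold lower (1.13 to 1.25). SNHG1 (chromosome 11, 62619460 to 62623386) stood at 53.0 RPKM (3258 reads) against 68.7 RPKM (4179 reads), 1.30-fold lower (1.24 to 1.36). The difference was larger than counting error in both, though well short of 2-fold.

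The most abundant snoRNA host was level between the libraries. SNHG29, with 3 box C/D genes, stood at 84.5 RPKM (5206 reads) against 84.9 RPKM (5174 reads), with an interval of 0.966 to 1.04 for how many times lower it was. SNHG7 (19.1 against 18.9 RPKM) and SNHG16 (12.5 RPKM in both libraries) were also level within counting error, and SNHG5 was 1.07-fold lower (1.02 to 1.12) at 71.4 against 76.3 RPKM. Between these and SNHG3 lay SNHG8, at 53.8 against 76.0 RPKM and 1.41-fold lower (1.29 to 1.55), and SNHG6, at 67.2 against 81.5 RPKM and 1.21-fold lower (1.13 to 1.30).

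The remaining snoRNA hosts covered a similar range. SNHG32 stood at 41.0 against 48.0 RPKM and SNHG19 at 69.4 against 80.3 RPKM, with ratios of -0.22 and -0.21. SNHG10 (96 and 147 reads) was 1.55-fold lower (1.19 to 2.02) and SNHG20 (160 and 233 reads) 1.47-fold lower (1.20 to 1.81), and both share exon positions with a better expressed gene, GLRX5 opposite SNHG10 (638 and 895 reads, ratio -0.50) and SEC14L1 on the strand of SNHG20 (4273 and 4660 reads, ratio -0.14). SNHG4 had an interval that ended next to no change (578 and 641 reads, 1.12-fold lower, 1.0002 to 1.26). The intervals of SNHG18, SNHG30, SNHG25, SNHG15, SNHG9 and SNHG21 spanned no change, with ratios from -0.19 to 0.22. In all, 13 of the 23 share exon positions with another row, and the sources used here do not say whether counting used strand.

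**Figure D2:**
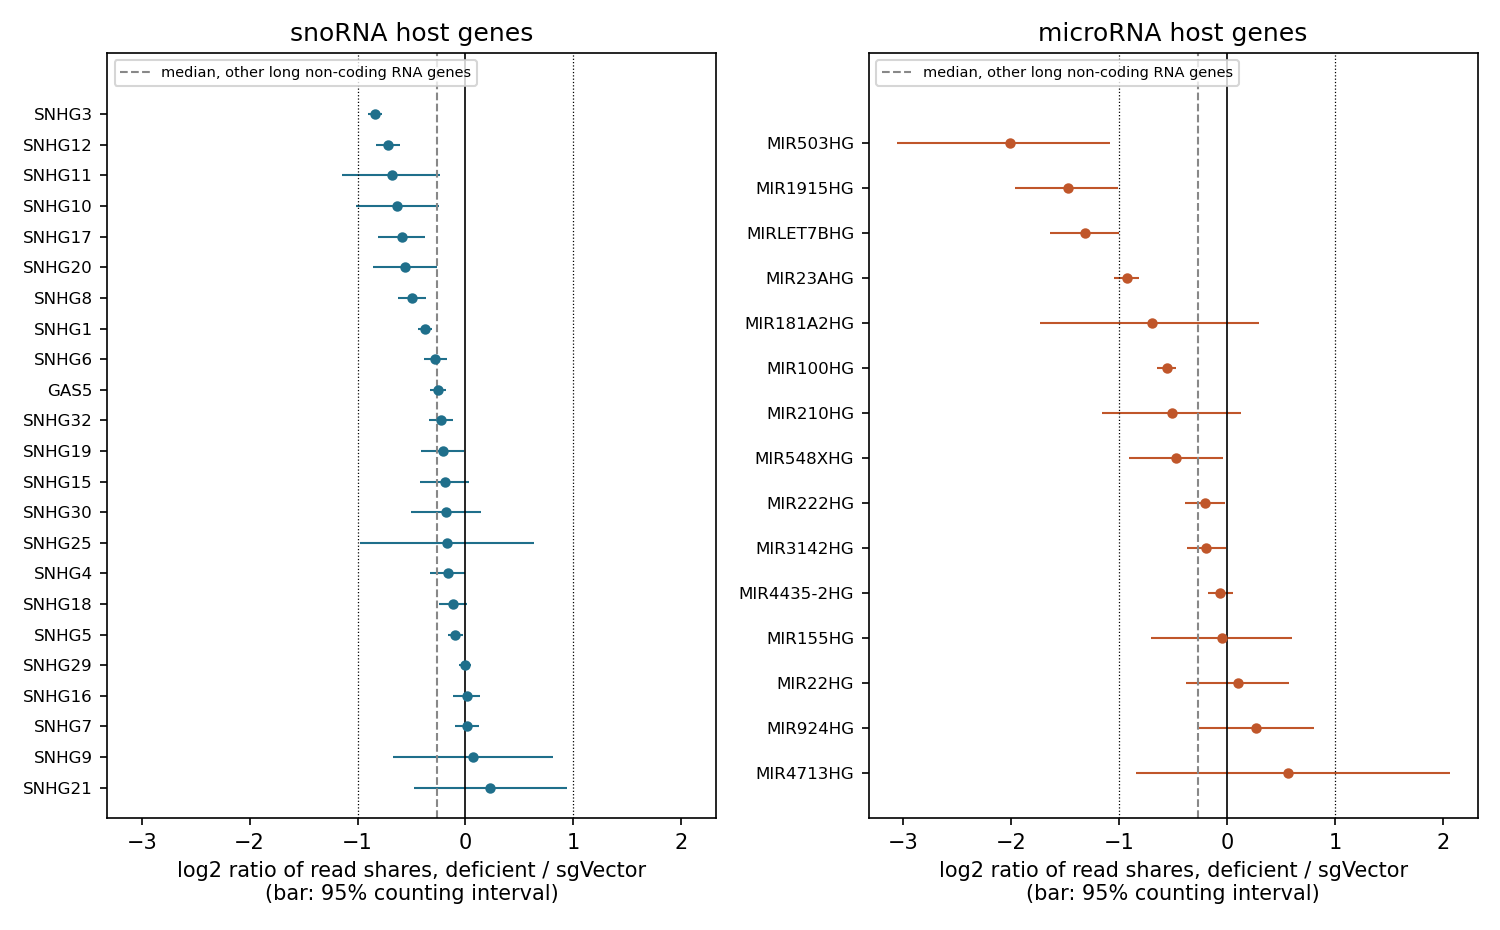
Log2 ratio of read shares without the pseudocount, deficient over sgVector, for each host past 1 RPKM; bars are 95% counting intervals, dotted lines mark 2-fold, and the dashed line is the median of the 1074 long non-coding RNA genes that are no hosts, -0.27. All 23 snoRNA hosts have point values inside 2-fold, and 3 microRNA hosts lie beyond it on the lower side.

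The 6 snoRNA hosts below 1 RPKM had few reads, except SNHG14. SNHG14, the long imprinted transcript that runs antisense to UBE3A and carries the SNORD115 and SNORD116 clusters, had 573 reads in the deficient library against 462, 1.23-fold higher (1.08 to 1.39), at 0.807 against 0.658 RPKM. It shares exon positions with UBE3A on the other strand, which had 1710 and 1265 reads (ratio 0.41), and the part of that overlap in its value was not tested. SNHG14 and SNHG21 lie on chromosome 15, whose 339 genes had a median ratio of 0.20. SNHG22, SNHG26 and SNHG31 had 1 to 4 reads in each library, and SNHG27 and SNHG28 had 0 in both.

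The snoRNA hosts were next set apart by the RefSeq genes inside them, a grouping chosen after the values were seen. All 23 held at least 1 snoRNA gene, 56 in all, 34 of them SNORD and 22 SNORA or SCARNA genes. The 10 hosts of SNORD genes alone had ratios from -0.37 to 0.01 (median -0.17). The 11 hosts of SNORA or SCARNA genes alone had ratios from -0.84 to 0.22 (median -0.50). The counting interval lay wholly below no change for 5 of the 10 and for 7 of the 11. That share was 32.6% of all genes and 28.3% of long non-coding RNA genes. Of the 7 hosts with the lowest ratios, 6 held SNORA or SCARNA genes alone and the other, SNHG12, held both kinds. The ranges overlapped, and the groups also differed in level, with a median of 52.7 RPKM for the SNORD hosts and 5.29 RPKM for the others, whose part in the difference was not tested. Relative to their 20 nearest protein-coding genes the medians were -0.20 and -0.44, and after a correction on GC content and length -0.01 and -0.35. The number of snoRNA genes in a host went with its ratio only weakly (Spearman -0.18 over 23 hosts, a description).

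**Figure D3:**
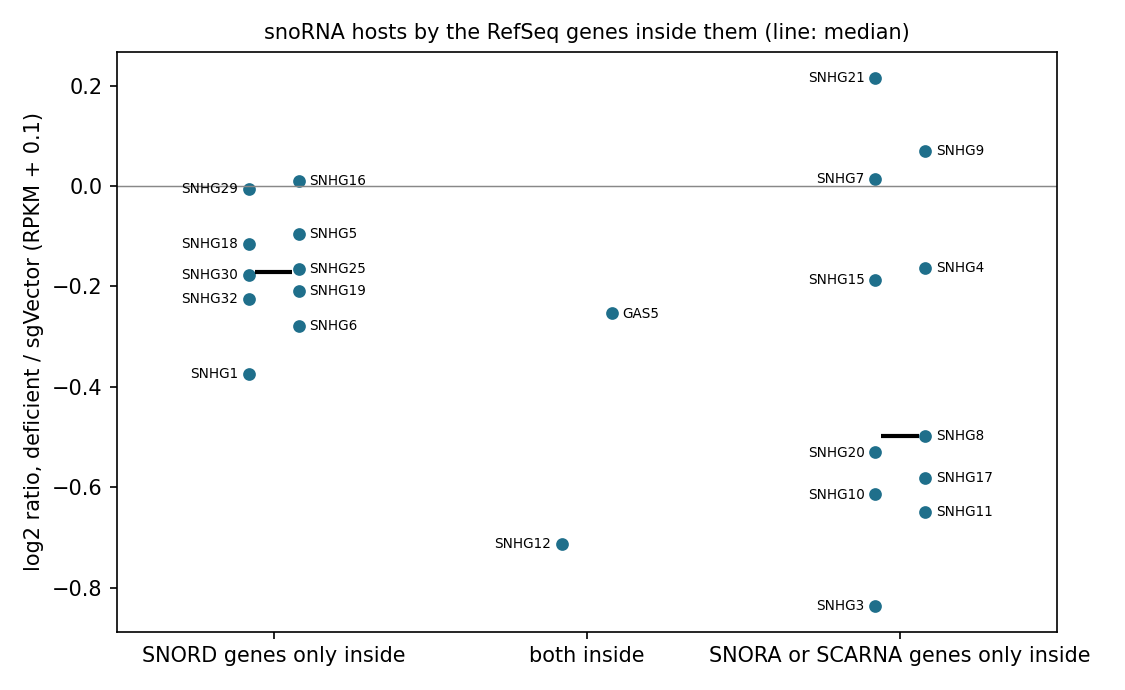
Log2 ratio, deficient over sgVector with 0.1 RPKM added, of each of the 23 snoRNA hosts, by the kind of small RNA genes RefSeq places inside it; each point is 1 gene and the short bars are the medians, -0.17 and -0.50. The SNORD hosts lie close together, from -0.37 to 0.01, while the SNORA and SCARNA hosts reach from -0.84 to 0.22.

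The snoRNA rows found inside the 29 snoRNA hosts, those below 1 RPKM included, carried few reads, and fewer in the deficient library. Many expressed hosts had no such row, so the sums here do not cover them. These were GAS5, SNHG1, SNHG5, SNHG6, SNHG7, SNHG8, SNHG9, SNHG15, SNHG20, SNHG21 and SNHG29. Most of the rows found belong to the SNORD115 and SNORD116 clusters of SNHG14, which is below 1 RPKM, and those held few of the reads. The 92 such rows held 181 reads against 354 in the control, 1.98-fold lower (1.65 to 2.38), with a read in 22 of them. SNORD99, inside SNHG12, had 18 and 70 reads, 3.93-fold lower (2.32 to 7.01), and its interval lay wholly below that of SNHG12. Without SNORD99 the sum was 1.76-fold lower (1.45 to 2.15). SNORD104 in SNHG25 had 54 and 100 reads, 1.87-fold lower (1.33 to 2.66), and SNORA73B in SNHG3 had 45 and 77, 1.73-fold lower (1.18 to 2.56), about as much as its host.

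Of the 10 snoRNA rows inside hosts with at least 10 reads, 9 were lower in the deficient library, and 6 of these by more than counting error. The others of the 6 were SNORD60 in SNHG19 (5 and 17 reads), SNORD123 in SNHG18 (9 and 23 reads) and SNORA71C in SNHG17 (4 and 13 reads). The exception was SNORA71B in SNHG17, with 13 and 9 reads. Among all genes past 1 RPKM, 55.5% had a ratio below 0 and 32.6% an interval wholly below no change. Reads of a mature snoRNA and of an unspliced host cannot be told apart here. The lower level was also seen away from the hosts: the 379 snoRNA rows elsewhere had 474 and 714 reads, 1.52-fold lower (1.35 to 1.71). The share of those 379 rows that were lower was not counted. Histone genes, whose messages mostly lack a poly(A) tail, had a median ratio of -0.55 over the 14 of 65 that passed 1 RPKM, 11 of them below 0; the part of RNA selection in the snoRNA rows was not tested.

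**Figure D4:**
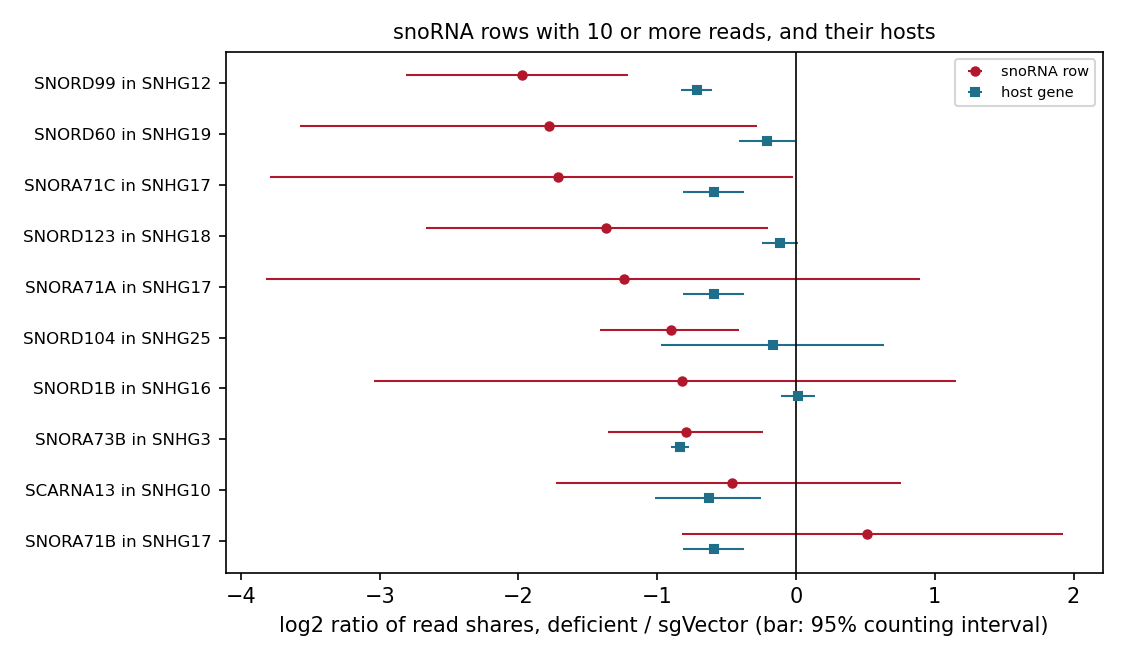
Log2 ratio of read shares, deficient over sgVector, of the 10 snoRNA rows with at least 10 reads inside a snoRNA host (circles) and of the host itself (squares), with 95% counting intervals. SNORD99 is the row whose interval lies apart from that of its host, and SNORA71B is the row with a ratio above 0.

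The microRNA hosts were expressed at lower levels, and their ratios spread more widely. Of 82, 15 passed 1 RPKM, with a median level of 1.81 RPKM against 19.0 RPKM for the snoRNA hosts. Their median log2 ratio was -0.46, from -1.80 for MIR503HG to 0.52 for MIR4713HG, and 12 of the 15 (80%) were below 0, beside 55.5% of all genes and 66.6% of long non-coding RNA genes. The median was -0.27 with a pseudocount of 1 RPKM, -0.28 after the correction on GC content and length, -0.23 when the floor was 0.5 RPKM and -0.20 when it was 5 RPKM. Only MIR3142HG, MIR222HG, MIR100HG and MIR4435-2HG passed the floor of 5 RPKM. By 2-fold or more, 3 hosts were lower and 0 higher, beside 4.69% and 3.03% of all genes. Among long non-coding RNA genes the shares were 14.5% and 4.68%. The interval lay wholly below no change for 8, above it for 0 and across it for 7, where 32.6% of all genes and 28.3% of long non-coding RNA genes lay wholly below.

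MIR503HG, the X-linked host of miR-503, had the lowest ratio on few reads. It stood at 0.437 RPKM (12 reads) in the deficient library against 1.77 RPKM (48 reads), 4.04-fold lower (2.12 to 8.36). Its 20 nearest protein-coding genes had a median ratio of 0.09. MIR1915HG (hg19 chromosome 10, 21781587 to 21786191), typed as protein-coding in GENCODE release 29, stood at 0.835 RPKM (52 reads) against 2.32 RPKM (143 reads), 2.78-fold lower (2.01 to 3.90), beside a neighbour median of -0.25.

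MIRLET7BHG (chromosome 22, 46449749 to 46509808) is the host of the let-7 pair shown above, a family known to repress growth genes such as HMGA2. It stood at 1.24 RPKM (116 reads) against 3.08 RPKM (286 reads), 2.49-fold lower (2.002 to 3.12). Its exons overlap those of PRR34-AS1 on the same strand, which had 11 and 30 reads (ratio -1.33), so the rows may share a transcript. Its neighbours had a median of -0.30, close to the -0.31 of the 242 genes of chromosome 22. The 2-fold calls of MIR503HG, MIR1915HG and MIRLET7BHG all ended with a pseudocount of 1 RPKM, at ratios of -0.94, -0.86 and -0.87.

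MIR23AHG, host of the miR-23a, miR-27a and miR-24 cluster, lay just short of 2-fold with far more reads. It stood at 3.04 RPKM (949 reads) against 5.79 RPKM (1788 reads), 1.90-fold lower (1.76 to 2.06). ZSWIM4, opposite it, had 257 and 197 reads (ratio 0.36), the other direction. MIR100HG, host of let-7a, miR-100 and miR-125b, had the most reads among these hosts, 1703 against 2485 (5.36 against 7.91 RPKM), 1.47-fold lower (1.39 to 1.57), while its neighbours had a median of 0.21.

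The 2 most abundant microRNA hosts per length differed little. MIR3142HG, whose span also holds the gene of miR-146a, a known brake on NF-κB signalling, stood at 12.3 RPKM (478 reads) against 14.0 RPKM (541 reads), 1.14-fold lower (1.01 to 1.30). MIR222HG, host of miR-221 and miR-222, which share a seed and are known to repress the cell-cycle inhibitor CDKN1B, stood at 9.72 RPKM (441 reads) against 11.2 RPKM (503 reads), 1.15-fold lower (1.01 to 1.31). Both intervals end close to no change.

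The other microRNA hosts above 1 RPKM were less certain. MIR4435-2HG (1224 and 1263 reads, ratio -0.06), MIR155HG, the primary transcript of the immune microRNA miR-155 (41 and 42 reads, ratio -0.05), and MIR22HG (79 and 73 reads, ratio 0.09) had intervals that spanned no change. So had MIR210HG, host of the hypoxia-induced miR-210 (37 and 52 reads, ratio -0.47), MIR181A2HG (15 and 24 reads, ratio -0.66), MIR924HG (67 and 55 reads, ratio 0.25) and MIR4713HG (12 and 8 reads, ratio 0.52). MIR4713HG also lies on chromosome 15, and its neighbours had a median of 0.33. MIR548XHG, with 78 and 107 reads, was 1.39-fold lower (1.03 to 1.88).

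The 67 microRNA hosts below 1 RPKM comprised 31 with no read in either library, 19 with 1 to 9 reads over both and 17 with more. Among the last, MIR762HG had 13 and 30 reads (0.429 times the sgVector share, 0.205 to 0.847) and MIR3936HG 14 and 31 (0.447 times, 0.220 to 0.865). No interval among the 17 lay wholly above no change. MIR17HG, primary transcript of the miR-17-92 cluster, had 18 and 11 reads and MIR4500HG 26 and 16, both on chromosome 13, whose 180 genes had a median ratio of 0.46. MIR34AHG, known as the p53-responsive host of miR-34a, had 65 and 79 reads, MIR29B2CHG 138 and 137, and MIRLET7IHG 105 and 110.

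Set side by side, the medians of the host classes differed by 0.25 on the log2 scale, with the snoRNA hosts closer to 0. This difference was not stable. With the same members it was 0.065 with a pseudocount of 1 RPKM and 0.12 after the correction on GC content and length. It was 0.13 without the member of each class farthest from its median, 0.029 when the floor was 0.5 RPKM, -0.000498 when it was 5 RPKM and -0.16 with no floor. In sums of reads over all members, snoRNA hosts held 28153 reads in the deficient library against 33866 (0.172% and 0.209% of reads), 1.22-fold lower (1.20 to 1.24). MicroRNA hosts held 6041 and 8203 reads (0.0369% and 0.0506%), 1.37-fold lower (1.33 to 1.42).

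Neither class stood far from other long non-coding RNA. The 1074 long non-coding RNA genes that are no hosts had a median ratio of -0.27, between the snoRNA hosts (-0.21) and the microRNA hosts (-0.46), and 159 of them (14.8%) were at least 2-fold lower. All genes had a median of -0.05 and protein-coding genes one of -0.03. Among genes averaging 10 RPKM or more, the 13 snoRNA hosts had a median of -0.22 and 63 other long non-coding RNA genes one of -0.37, with 9 at least 2-fold lower and 3 higher.

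Position on the chromosome was set against these values. Each host was compared with its 20 nearest protein-coding genes, 10 on each side. Of the snoRNA hosts 18 of 23 lay below the median of their neighbours, and the median difference over the 23 was -0.26 on the log2 scale. Of the microRNA hosts 13 of 15 did, with a median difference of -0.52. The neighbours are all protein-coding genes, whose median was -0.03, while the other long non-coding RNA genes had one of -0.27. How many of those other genes lie below their own neighbours was not counted, so these counts have no share to stand beside. Over the 15 microRNA hosts the ratio went with that of the neighbours (Spearman 0.69) and over the 23 snoRNA hosts it hardly did (0.09). These are descriptions over genes of the same libraries, and some hosts share neighbours.

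**Figure D5:**
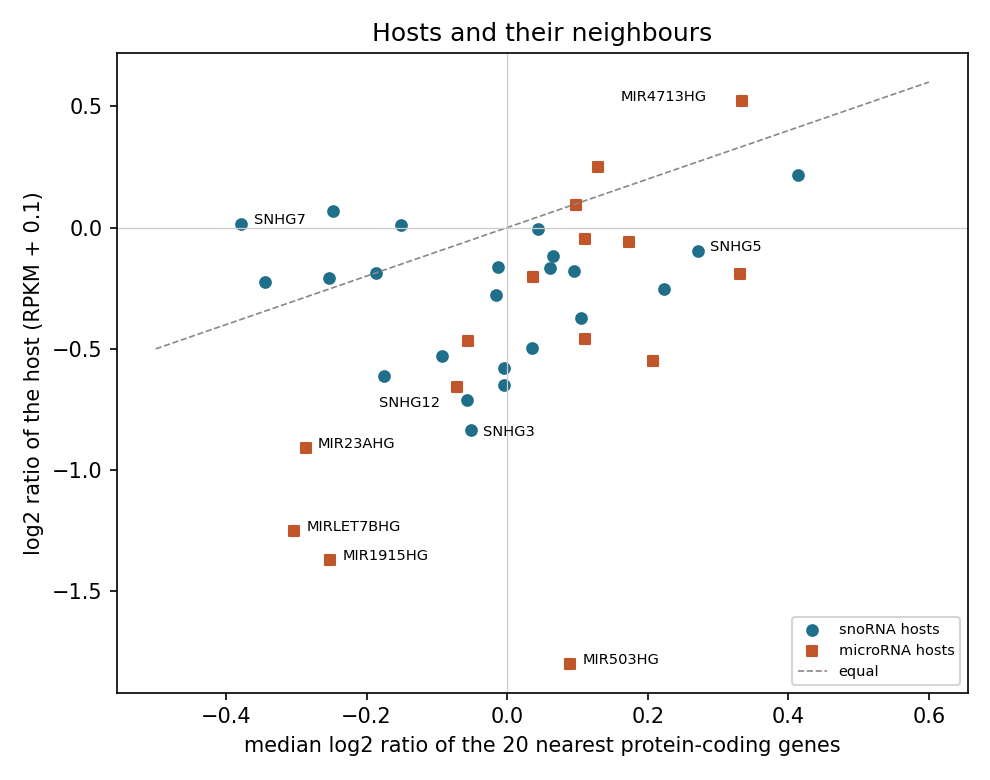
Log2 ratio of each host, deficient over sgVector with 0.1 RPKM added, against the median ratio of its 20 nearest protein-coding genes; circles are snoRNA hosts, squares microRNA hosts, and the dashed line marks equal values. Points below the line are hosts lower than their neighbours, 18 of 23 and 13 of 15, a share not counted for other long non-coding RNA genes. MIR503HG lies lowest, at -1.80 beside a neighbour median of 0.09.

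Protein-coding genes that carry small RNAs were set beside the hosts. The 145 with a snoRNA row inside had a median ratio of -0.03, the same as all protein-coding genes. Of the 145, 76 were below 0, beside 55.5% of all genes. In either direction 0 passed 2-fold, beside 2.1% of protein-coding genes on the higher side and 2.07% on the lower. DDX55 (-0.66), SNX5 (-0.65) and MAGED2 (-0.64) were the lowest and RAB30 (0.96), MIB1 (0.78) and ACADM (0.75) the highest. The 28 of them that encode ribosomal proteins, which are 5′-TOP genes too, had a median of -0.18, beside -0.21 for the snoRNA hosts. Of these 28, 20 were below 0, beside 55.5% of all genes. They reached from RPL12 (-0.48), RPL17 (-0.44, on 212 and 285 reads) and RPL5 (-0.31) to RPS3A (0.15), RPL30 (0.22) and RPL39 (0.24). The 324 protein-coding genes with a microRNA row inside had a median of 0.07, with 6 at least 2-fold higher and 3 lower, beside 2.1% and 2.07% of protein-coding genes.

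The proteins that make and handle these RNAs were listed by role. Of 20 factors of snoRNA particle assembly, all above 1 RPKM, 0 passed 2-fold and the median was -0.06. The interval was wholly below no change for 9 and above it for 3, beside 32.6% and 25.9% of all genes. The lowest were RUVBL1, a helicase of particle assembly (643 and 960 reads, ratio -0.59), SHQ1 (-0.47) and GAR1 (-0.44). The highest were NUFIP1 (0.31), PHAX (0.23) and NHP2 (0.23). Factors of box H/ACA particles stood on both sides: SHQ1, GAR1 and DKC1 (-0.14) below 0, and NHP2, NAF1 (0.12) and NOP10 (0.06) above it.

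MicroRNA processing and effector proteins also stayed within 2-fold, with a median of -0.04 over 19 of 20. The lowest were DGCR8, the RNA-binding partner of DROSHA (336 and 446 reads, ratio -0.41), TARBP2 (-0.37) and SRRT (-0.35). The highest were ZC3H12A, a nuclease that cuts inflammatory messages and microRNA precursors (6699 and 3598 reads, ratio 0.88), DICER1, which cuts the hairpin into the mature microRNA (1924 and 1235 reads, ratio 0.62), and TNRC6C (0.57). The interval was wholly below no change for 6 and above it for 8, not far from the 32.6% and 25.9% of all genes.

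Nonsense-mediated decay, which acts on spliced SNHG transcripts, had 19 listed factors with a median of -0.09. Beside 4.69% of all genes and 2.07% of protein-coding genes, 1 of the 19 was at least 2-fold lower. That was DHX34, a helicase of the pathway, at 3.18 RPKM (297 reads) against 7.28 RPKM (672 reads), 2.29-fold lower (1.99 to 2.63). UPF2 (-0.61) and MAGOHB (-0.47) came next, and SMG6 (0.62), XRN1 (0.44) and UPF3A (0.42) were the highest. The interval lay below no change for 7 and above it for 5, near the 32.6% and 25.9% of all genes.

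Regulators of 5′-TOP translation numbered 17, with a median of -0.12 and 0 past 2-fold. EIF4EBP1, the repressor of cap binding controlled by MTOR, was lowest (1236 and 2269 reads, ratio -0.89). Next came EIF4A1 (-0.38), near the floor at 1.18 against 1.57 RPKM (103 and 135 reads), and RHEB (-0.36). EIF4EBP2, a paralog of EIF4EBP1, was highest (1490 and 846 reads, ratio 0.79), followed by LARP1, which binds the 5′-TOP motif (8214 and 5536 reads, ratio 0.55), and EIF4G1 (0.24). The interval lay below no change for 7 and above it for 6, beside 32.6% and 25.9% of all genes.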

How the data were processed

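The submitters' processing notes name Subread, featureCounts 1.6.4, hg19 and GRCh37; the annotation and any use of strand were not stated. The authors deposited RPKM values per gene, a column for each library, and, per the file headers, exon coordinates and lengths. Per the labels, the RNA was polyA RNA, and the protocol text names poly(A) enrichment or removal of ribosomal RNA. RPKM times length came out as whole reads (tolerance 1e-06) in 100% of cells. Of 60880 rows, 41 pseudoautosomal copies were left out; 92.7% of the rest had a current symbol. Gene types and GC content came from GENCODE release 29 (no coordinates) and sequences from RefSeq.

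Ratios used a pseudocount of 0.1 RPKM, which understates changes of low genes, and a floor of 1 RPKM (mean). Intervals are Clopper-Pearson (95%); they cover counting error only, as PCR copies were not marked. Members and lists were chosen with earlier results of these data known. All members past the floor are named, with the 3 highest and 3 lowest of each list and small RNAs with at least 10 reads. Alternatives were other pseudocounts, floors, scalings and thresholds, a lowess correction (share 0.3) and members left out. The ratio and interval steps were tested on simulated data. Python 3.11.15 was used with scipy 1.17.1, pandas 2.3.3, numpy 2.4.6, matplotlib 3.10.9 and statsmodels 0.14.6.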

Additional observations from a re-analysis of the deposited data

How the results depend on the processing

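The count of microRNA hosts at least 2-fold lower was 3; it was 0 with a pseudocount of 1 RPKM, 0 with a floor of 5 RPKM, 0 at 4-fold, 5 with no floor and 5 at 1.5-fold. The count of snoRNA hosts lower was 0 at 2-fold and 4 at 1.5-fold. The difference of medians, snoRNA minus microRNA hosts, was 0.25. It changed sign with a floor of 5 RPKM (-0.000498), which few microRNA hosts passed. It also changed sign with no floor (-0.165), where the microRNA median was 0, 31 of the 82 hosts having no read. It kept its sign but shrank to 0.029 with a floor of 0.5 RPKM, 0.065 with a pseudocount of 1 RPKM, 0.117 after the GC and length correction and 0.133 without the farthest members, and was at most 0.26. The snoRNA median ran from -0.26 to -0.13 and the microRNA median from -0.52 to 0. The pooled read ratio of snoRNA hosts, 0.822, was 0.791 without SNHG29, 0.867 with TMM scaling and 0.809 without mitochondrial genes. That of microRNA hosts, 0.729, was 0.768 with TMM. The cause was not tested. Between 16 and 21 of 23 snoRNA hosts and between 10 and 12 of 15 microRNA hosts were below 0 across scalings. Single hosts changed sign in 14 of 304 values, in SNHG29, SNHG16, SNHG7, SNHG18, SNHG19, SNHG25, MIR155HG and MIR4435-2HG, which lay near 0 or within counting error but for SNHG19. Under GENCODE release 29 names, 3 further rows would join, the largest being another SNHG28 row with 66 and 36 reads, below the floor. The neighbour comparison and these names were added after the data were seen. No paired analysis was possible because each group had 1 library. Depth limits the hosts with few reads: 12 and 48 reads leave MIR503HG between 2.12-fold and 8.36-fold lower.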

Other observations

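Of the 324 protein-coding genes with a microRNA row inside, 6 were at least 2-fold higher and 3 lower, beside 2.1% and 2.07% of all protein-coding genes. The lowest were DDIT3, a transcription factor of the stress response, with 133 reads in the deficient library against 392, 2.98-fold lower (2.44 to 3.65), ARFGAP1, which acts in Golgi transport, with 2523 and 5773 reads, 2.31-fold lower (2.21 to 2.42), and TNFAIP6, with 51 and 114 reads, 2.26-fold lower (1.61 to 3.21). The highest were ELMO1, a regulator of cell migration and engulfment, with 285 and 76 reads (3.71-fold higher, 2.87 to 4.84), ARL15 with 282 and 111 reads (2.51-fold higher, 2.01 to 3.16) and FAM83H with 738 and 300 reads (2.43-fold higher, 2.13 to 2.79).

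Among the histone genes, H2BC17 had 4 and 11 reads and H3C10 had 16 and 35, ratios of -1.34 and -1.05, while H4C3 had 23 and 12, a ratio of 0.88. All 1156 microRNA rows together had 436 and 555 reads, 1.29-fold lower (1.13 to 1.46).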
